A study of Homo sapiens with 6 samples.

Results

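The EGR and NR4A transcription factors and the immediate early response genes IER2 and IER3 were examined in HCC-LM3 hepatocellular carcinoma cells after knockdown of ASPP2. The 9 genes were EGR1, EGR2, EGR3, EGR4, NR4A1, NR4A2, NR4A3, IER2 and IER3. They were chosen by symbol, as every array feature that the deposited files assign to one of these names, which gave 20 features of 45033 and 9 genes of 23595 named genes. Each feature was summarised from 3 probes. Earlier results on the same arrays had already shown lower EGR1 and NR4A2 intensities after knockdown when these families were picked. The differences between groups given below for the 9 genes are therefore a description.

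The study compared HCC-LM3 cells infected with a lentivirus carrying an shRNA against ASPP2 (shASPP2, 3 arrays) with cells infected with a control shRNA lentivirus (shNon, 3 arrays). HCC-LM3 is a human liver cancer line that spreads readily when grafted into mice. Both groups thus carried a lentivirus and an shRNA, total RNA was taken a week after infection, and each array held RNA of a separate culture. ASPP2, encoded by TP53BP2, binds p53 and polarity proteins, and the labels name no growth factor or stress given before harvest.

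On the 6 arrays the median feature intensity was between 111 and 122. The level of random-sequence probes, which match no transcript, was between 30.4 and 30.8 in shASPP2 and between 31.8 and 33.3 in shNon, and 2 times that level is used below as the mark of a signal above background. The features of TP53BP2 averaged 197 ± 43.5 and 117 ± 21.6 in shASPP2, against 424 ± 81.9 and 306 ± 34.2 in shNon (SD, n = 3), with every shASPP2 array below every shNon array. Their log2 fold changes were -1.11 and -1.41. The limma adjusted p-values, from the test described below, were 0.203 and 0.0991, so neither feature passed it. Of 12 liver cell and liver tumour markers, 5 had a 6-array mean above that mark, led by KRT8, KRT18 and HNF4A and with a summed intensity over the list between 23711 and 28742 in shASPP2 and between 17538 and 19674 in shNon, whereas AFP, APOA1, APOB, TTR, SERPINA1, EPCAM and GPC3 did not reach it as means over the 6 arrays. AFP averaged 70.3 ± 17.6 in shASPP2, with 2 of 3 arrays above the mark, and 43.6 ± 16.2 in shNon, with 0 of 3 above it (SD, n = 3). Of the markers of other cells, 2 of 6 leukocyte, 3 of 6 fibroblast and stellate and 1 of 6 endothelial genes lay above it, and no marker of any list passed the test described below. Their summed intensity on an array was between 3918 and 4459 in shASPP2 and between 2926 and 3986 in shNon for leukocyte markers. It was between 504 and 685 in shASPP2 and between 462 and 520 in shNon for fibroblast and stellate markers, and between 1025 and 1244 in shASPP2 and between 2050.0 and 2183 in shNon for endothelial markers, mostly PECAM1. Their part in the differences below was not tested. In bulk RNA of this kind, fewer cells that express a gene and less RNA per cell cannot be told apart.

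Immediate early genes are transcribed within minutes of a growth factor, cytokine or stress signal, without new protein synthesis, and their mRNAs are short-lived. MAP kinases activate ELK factors, which act with serum response factor at CArG boxes, and cyclic AMP and stress kinases activate CREB at the cyclic AMP response element. EGR proteins are zinc-finger activators of growth factor and matrix genes, held back by the co-repressors NAB1 and NAB2. NR4A proteins are orphan nuclear receptors that act largely according to their amount, and in mouse liver they were linked to gluconeogenic genes. EGR1 and NR4A1 are also rapidly induced in regenerating rodent liver. IER2 is a small nuclear protein, and IER3 modulates apoptosis and NF-kB signalling.

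RefSeq promoter windows of GRCh38.p14 were searched for 6 of the 9 genes, as 9 windows. No window of EGR3, NR4A2 or IER3 was searched, so the counts below do not cover these 3 genes. The windows were taken by gene symbol and were not matched to the transcripts of the array features. In the 250 bases before each start site, both strands were searched for the CArG box, the TGACG core of the cyclic AMP response element and its full form TGACGTCA (which contains that core), the EGR site GCGTGGGCG and the NR4A site AAAGGTCA. The TGACG core was found in 5 of the 9 windows, each of another gene, and in 21.2% of all 35116 windows. The CArG box was found in 2 of the 9 windows, of EGR1 and EGR2, and in 1.16% of all windows. The full element, the EGR site and the NR4A site were found in none of the 9 windows of these genes, and in 1.65%, 0.72% and 1.05% of all windows. The EGR1 window, at chr5:138465229-138465478 on the plus strand, held 2 CArG boxes and 2 TGACG cores, and 1 of 3 EGR2 windows, at chr10:62816367-62816616 on the minus strand, held 1 CArG box and 2 TGACG cores. The NR4A3 window, at chr9:99821635-99821884 on the plus strand, held 4 TGACG cores, and the IER2 window, at chr19:13150161-13150410 on the plus strand, held 1. These 4 windows are shown 5′ to 3′ and carry most of the elements found. Capitals mark a CArG box or a TGACG core, which reads CGTCA where it lies on the other strand. A match of letters is a description of the window and not evidence of binding.
EGR1: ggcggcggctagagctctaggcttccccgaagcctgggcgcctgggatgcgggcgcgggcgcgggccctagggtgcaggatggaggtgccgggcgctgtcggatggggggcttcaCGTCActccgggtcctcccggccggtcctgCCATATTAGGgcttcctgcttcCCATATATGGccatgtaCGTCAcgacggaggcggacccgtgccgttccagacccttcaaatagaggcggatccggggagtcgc
EGR2: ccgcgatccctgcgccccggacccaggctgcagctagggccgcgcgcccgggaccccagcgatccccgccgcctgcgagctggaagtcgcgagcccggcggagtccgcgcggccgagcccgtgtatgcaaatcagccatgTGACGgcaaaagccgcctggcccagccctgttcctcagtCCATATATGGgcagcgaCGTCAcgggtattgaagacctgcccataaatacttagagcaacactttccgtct
NR4A3: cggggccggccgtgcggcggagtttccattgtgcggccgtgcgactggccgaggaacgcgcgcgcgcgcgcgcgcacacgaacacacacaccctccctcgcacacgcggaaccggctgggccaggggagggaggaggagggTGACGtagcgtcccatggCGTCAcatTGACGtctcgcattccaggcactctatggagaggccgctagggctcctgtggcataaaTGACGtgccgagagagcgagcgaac
IER2: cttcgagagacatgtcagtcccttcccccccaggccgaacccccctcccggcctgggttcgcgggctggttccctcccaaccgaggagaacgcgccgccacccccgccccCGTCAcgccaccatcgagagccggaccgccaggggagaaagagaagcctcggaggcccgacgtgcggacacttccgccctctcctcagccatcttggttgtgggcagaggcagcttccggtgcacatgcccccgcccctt

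EGR1 and NR4A2 had lower signals in shASPP2, each without overlap on 1 feature above background. EGR1 had 1 feature above background and NR4A2 had 3, of which the others overlapped between groups. IER2 and IER3 had moderately higher signals, without overlap on 3 of their 4 features. Of all features with a mean above 2 times the random-probe level, 12.5% were higher and 11.1% lower without overlap. No member passed the test. In a limma fit over all 45033 features with Benjamini-Hochberg adjustment, 0 of the 20 features had an adjusted p under 0.05, against 0.138% of all features (0.0533% higher and 0.0844% lower in shASPP2), with adjusted p-values between 0.153 and 0.971. At an unadjusted p under 0.05 there were 6 of the 20, against 11.4% of all features. Of these 6, 4 were among the 10 members with a mean above 2 times the random-probe level. Over all 26954 features above that level, 3606 had such a p. The limma fit with trend and robust variance also called 0, where it called 2.11% of all features. It gave 8 members an unadjusted p under 0.05, against 12.9% of all features. Of the 20 features, 11 had a positive and 9 a negative log2 fold change, and the median was 0.07 log2, against 0.01 over all features.

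All shASPP2 arrays lay above all shNon arrays for 5 of the 20 features (9.46% of all features) and below them for 4 (9.17%), so that 9 did not overlap (18.6%). Among the 10 features with a mean above 2 times the random-probe level, the counts were 4 higher and 2 lower, where all such features gave 12.5% and 11.1%, or 23.5% in either direction. Since the genes were picked with these arrays in view, nothing is read from these counts. Of the 20 features, 8 were above that level on all 6 arrays, 6 were so on some arrays, and 6 on none. Of all 45033 features, 22860 were above it on all 6 arrays, 10233 on some and 11940 on none. The counts of member features differed between the families, and within the EGR and NR4A families also between genes. All 4 IER features, 3 of 9 NR4A features and 1 of 7 EGR features were above it on every array.

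**Figure D1:**
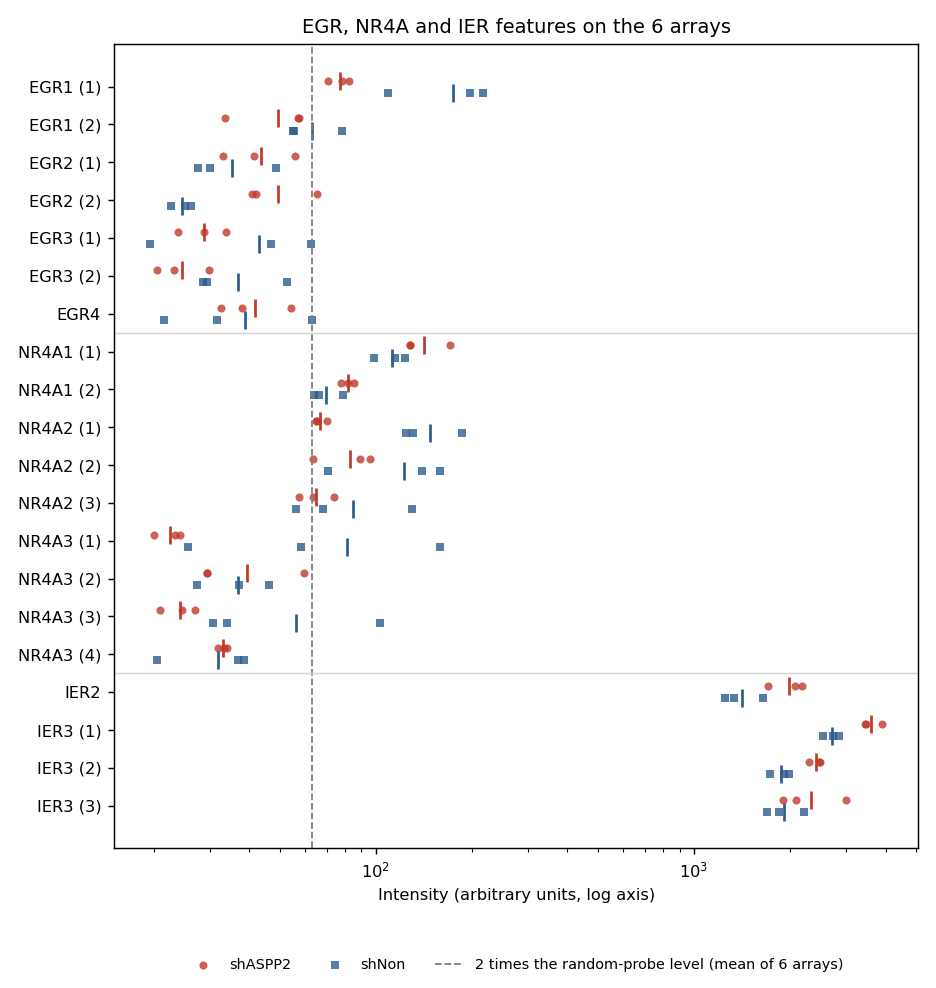
Intensity of each of the 20 features on the 6 arrays (log axis, arbitrary units), with shASPP2 as red circles drawn above shNon as blue squares, the group means as vertical ticks and 2 times the random-probe level, averaged over the arrays, as a dashed line. Numbers in brackets count the features of a gene from the brightest; the first features of EGR1 and NR4A2 separate with shASPP2 to the left, at means of 77.0 and 66.8 against 174 and 147 in shNon, and the IER features lie far above the dashed line.

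EGR1, also known as KROX-24, is the best studied factor of its family and an activator of growth factor and clotting genes. Its brighter feature (NM_001964, chromosome 5, 137829079 to 137832903, hg18, the span of the transcript) had intensities of 70.6, 78.1 and 82.2 in shASPP2, against 109, 197 and 217 in shNon. The shASPP2 arrays were close together and all below the shNon arrays, of which array 1 was the lowest. The means were 77.0 ± 5.88 in shASPP2 and 174 ± 57.5 in shNon (SD, n = 3), a log2 fold change of -1.12 (SE 0.281, 95% interval -1.78 to -0.46), and 0.553% of all features had a lower one. Leaving out single arrays and the other settings gave values between -1.43 and -0.93 log2.

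The other EGR1 feature (BC073983, 137829087 to 137832173) covers a transcript that ends earlier and was dim. It had 57.1, 57.4 and 33.6 in shASPP2, against 55.2, 55.0 and 78.3 in shNon. The groups overlapped, all shASPP2 arrays were under 2 times the random-probe level, and 1 shNon array was above it. The fit gave -0.37 log2 (SE 0.276, 95% interval -1.02 to 0.27) without a firm size, since the shNon mean of 62.8 ± 13.4 was also under the mark of a signal above background. Both EGR1 features thus had a lower mean in shASPP2, and they differed by 0.75 log2 in size.

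EGR2, or KROX-20, is a regulator of myelination and of immune tolerance. Its features (chromosome 10, 64241762 to 64246133 and 64241765 to 64246121, hg18) were dim, with 1 of 12 values above 2 times the random-probe level. The feature BC035625 had 65.1, 40.7 and 42.1 in shASPP2, against 22.6, 26.2 and 25.1 in shNon. The groups did not overlap, but every shNon value lay under the random-probe level itself. The fitted log2 fold change of 0.97 (SE 0.230) therefore has no firm size, since the mean of shASPP2, at 49.3 ± 13.7, was under the mark of a signal above background. The feature NM_000399 had 55.8, 33.1 and 41.4 in shASPP2 and 27.5, 48.5 and 30.0 in shNon, with overlapping groups and a log2 fold change of 0.31 (SE 0.292).

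EGR3 and EGR4 were not measurably above background. EGR3 (chromosome 8, 22601118 to 22606760, hg18) is induced by growth factors and by EGR1 itself, and its features had between 20.5 and 33.8 in shASPP2 and between 19.6 and 62.3 in shNon. None of these values reached 2 times the random-probe level. The log2 fold changes were -0.43 (SE 0.416) and -0.55 (SE 0.288), with overlapping groups. On both features shNon array 1 was the highest of the 6, and without it the values were -0.08 and -0.26 log2. EGR4 (chromosome 2, 73371569 to 73374118) had 54.1, 32.7 and 37.9 in shASPP2, against 31.8, 21.6 and 62.7 in shNon, with a log2 fold change of 0.21 (SE 0.399) that became -0.14 without shNon array 2.

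NR4A1, known as NUR77 or TR3, is an orphan receptor that regulates metabolism and, at mitochondria, cell death. Its feature NM_002135 (chromosome 12, 50731457 to 50739554, hg18) had 128, 171 and 128 in shASPP2, against 115, 98.9 and 123 in shNon. The shASPP2 arrays were all higher, by a narrow margin. The means were 142 ± 24.7 in shASPP2 and 112 ± 12.3 in shNon (SD, n = 3), and the log2 fold change was 0.33 (SE 0.200, 95% interval -0.14 to 0.80). The feature NM_173158 (50723762 to 50736019), of a transcript that starts further upstream, had 85.4, 81.6 and 77.7 in shASPP2, against 63.9, 78.7 and 66.2 in shNon. Here the groups overlapped, and the log2 fold change was 0.23 (SE 0.174). The NR4A1 features agreed in direction within 0.10 log2.

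NR4A2, or NURR1, is the relative of NR4A1 known for its part in dopamine neurons and is also induced in many epithelial cells. Its feature NM_006186 (chromosome 2, 156889194 to 156897446, hg18) had 65.4, 70.0 and 64.9 in shASPP2, against 187, 131 and 125 in shNon. The shASPP2 values were nearly equal and only just above 2 times the random-probe level, which was 60.9 to 61.5 on these arrays. The means were 66.8 ± 2.84 in shASPP2 and 147 ± 34.4 in shNon (SD, n = 3), with a log2 fold change of -1.12 (SE 0.210, 95% interval -1.61 to -0.63). Its adjusted p was the lowest of the 20 features, at 0.153 in limma, and 0.562% of all features had a lower log2 fold change. Leaving out single arrays and the other settings gave values between -1.23 and -0.93 log2.

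The other NR4A2 features were of smaller difference and overlapped between groups. BC066890 had 63.2, 88.9 and 95.9 in shASPP2, against 159, 70.7 and 139 in shNon. Its shNon array 2 lay among the shASPP2 arrays, and the log2 fold change was -0.51 (SE 0.338), or -0.87 without that array. BC009288 had 63.6, 73.7 and 57.2 in shASPP2, against 56.1, 68.0 and 130 in shNon. This difference of -0.30 log2 (SE 0.322) rested on shNon array 3 and was 0.06 without it. The 3 NR4A2 features thus shared a direction with all 6 arrays in the fit, and the values ranged over 0.82 log2.

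NR4A3, or NOR1, is the remaining member of the receptor family, with overlapping DNA-binding properties. Its 4 features (chromosome 9, 101623957 to 101668994, hg18, the widest span) gave no common picture. NM_006981 had 23.3, 20.1 and 24.2 in shASPP2, against 159, 25.7 and 58.2 in shNon, and U12767 had 21.0, 24.5 and 26.9 in shASPP2, against 30.8, 33.99 and 103 in shNon. On both features the shASPP2 arrays were lower without overlap and under the random-probe level, but a single shNon array was above 2 times that level, array 1 on NM_006981 and array 3 on U12767. Their fitted log2 fold changes were -1.46 (SE 0.583) and -0.99 (SE 0.447). NM_006981 had -0.78 log2 without shNon array 1 and -2.10 without shNon array 2, and U12767 had -0.43 without shNon array 3 and -1.30 without shNon array 1. No size is read from these values, since 2 of the 3 shNon arrays were also under 2 times the random-probe level on each feature. D78579 and NM_173199 were dim in both groups, with log2 fold changes of 0.05 (SE 0.335) and 0.10 (SE 0.269). D78579 turned to -0.29 without shASPP2 array 3 and to -0.15 without shNon array 3, and NM_173199 to -0.19 without shNon array 3.

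IER2 and IER3 were well above background on every array. IER2 (NM_004907, chromosome 19, 13122281 to 13126722, hg18) had 1703, 2182 and 2078 in shASPP2, against 1248, 1649 and 1335 in shNon. The groups did not overlap, with shASPP2 array 1 and shNon array 2 nearest to each other. The means were 1988 ± 252 in shASPP2 and 1411 ± 211 in shNon (SD, n = 3), a log2 fold change of 0.50 (SE 0.198, 95% interval 0.03 to 0.96), and 90.4% of all features had a lower one.

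IER3 has 3 features of transcripts with nearly the same span (chromosome 6, 30818955 to 30820303, hg18), and how far their probes overlap is not known here. NM_052815 had 3437, 3893 and 3465 in shASPP2, against 2727, 2859 and 2535 in shNon, and NM_003897 had 2290.0, 2486 and 2474 in shASPP2, against 1731, 1919 and 1988 in shNon. On these features every shASPP2 array was the higher, with log2 fold changes of 0.41 (SE 0.168, 95% interval 0.02 to 0.80) and 0.36 (SE 0.166, 95% interval -0.02 to 0.75). BC000844 had 1906, 2996 and 2087 in shASPP2, against 1842, 1699 and 2216 in shNon. Here the groups overlapped, and the log2 fold change was 0.26 (SE 0.231). The 3 features agreed within 0.15 log2, and under every alternative tried their values stayed between 0.06 and 0.45, the lowest for BC000844 without shASPP2 array 2. Between 76.2% and 86.4% of all features had a lower log2 fold change than the IER3 features.

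**Figure D2:**
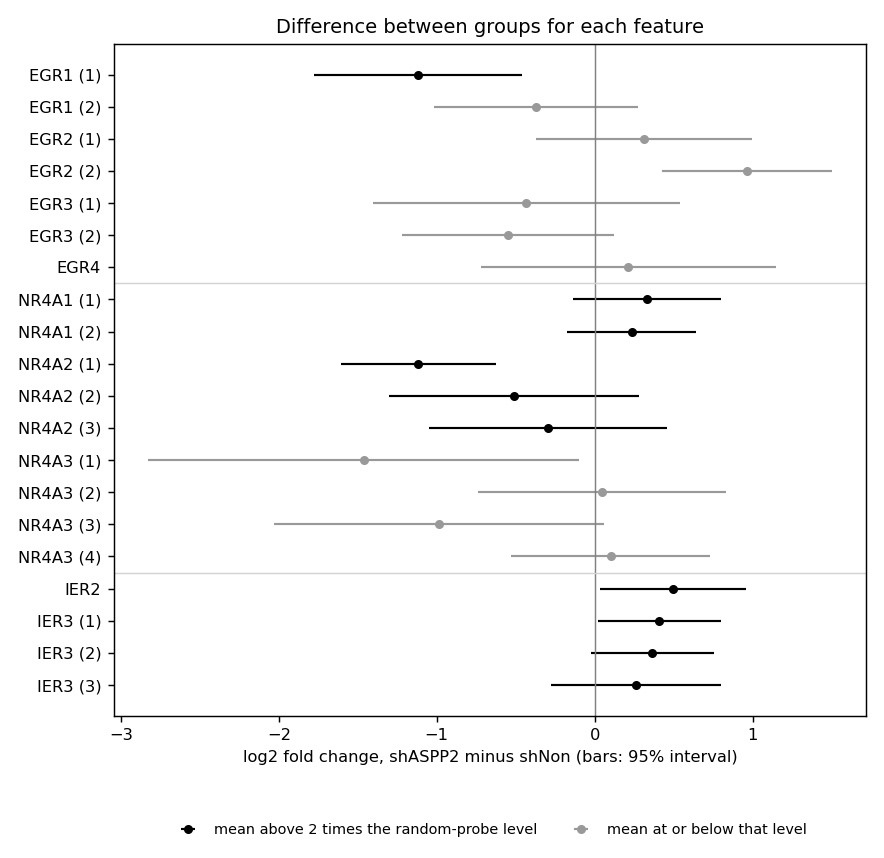
Log2 fold change, shASPP2 minus shNon, of each feature with its 95% interval from limma (not adjusted for the number of features); black points have a mean above 2 times the random-probe level, grey points do not. The first EGR1 and NR4A2 features lie at -1.12, the grey NR4A3 features spread from -1.46 to 0.10, and the IER features lie between 0.26 and 0.50.

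Agreement between features of a gene was thus uneven. Of the 7 genes with several features, 6 had the same direction on all of them and NR4A3 was split 2 to 2. Over all 11864 named genes with several features, 55.3% had the same direction throughout, 65.0% of those whose features were all above 2 times the random-probe level and 42.9% of the others. NR4A1, NR4A2 and IER3 belong to the brighter kind, and EGR1, EGR2, EGR3 and NR4A3 to the dimmer. The range of log2 fold changes within a gene was 0.10 for NR4A1, 0.15 for IER3 and 0.82 for NR4A2, against a median of 0.23 for all brighter genes. It was 0.12 for EGR3, 0.66 for EGR2, 0.75 for EGR1 and 1.57 for NR4A3, against a median of 0.45 for all dimmer genes.

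The shNon arrays were the more scattered. The SD of log2 intensity had a median of 0.22 in shASPP2 and 0.41 in shNon over the 20 features, against 0.23 in shASPP2 and 0.31 in shNon over all features. It was larger in shNon for 14 of the 20, and for 64.8% of all features. The highest shNon array was not the same across genes: array 1 was highest for the main NR4A2 feature, array 2 for IER2 and array 3 for the main EGR1 feature.

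Genes with the profiles most like those of EGR1 and NR4A2 were then listed. Likeness was the root mean square difference between log2 intensities centred on their mean over the 6 arrays, among features of other genes with a mean above 2 times the random-probe level. Nearest to EGR1 of 26015 features were CHRNB1, a subunit of the muscle acetylcholine receptor, at 0.061, the nuclear envelope protein gene SYNE2 at 0.129, GRAMD4 at 0.133, FN3K, which removes sugars bound to proteins, at 0.135, and the mucin gene MUC20 at 0.155 log2. The median over all candidates was 0.684.

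Nearest to NR4A2 of 26013 features were ZSWIM9 at 0.067, the zinc finger gene ZNF514 at 0.147, ZDHHC11B at 0.149, LOC646129 at 0.151 and CRYL1, the gene of lambda-crystallin, at 0.16 log2, against a median of 0.666. The EGR1 and NR4A2 features, both already known to be lower in shASPP2, lay 0.500 log2 from each other. CHRNB1 had 105, 120 and 137 in shASPP2, against 163, 309 and 354 in shNon, and ZSWIM9 had 88.1, 107 and 97.3 in shASPP2, against 257, 189 and 186 in shNon. These distances are a description of 6 arrays.

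**Figure D3:**
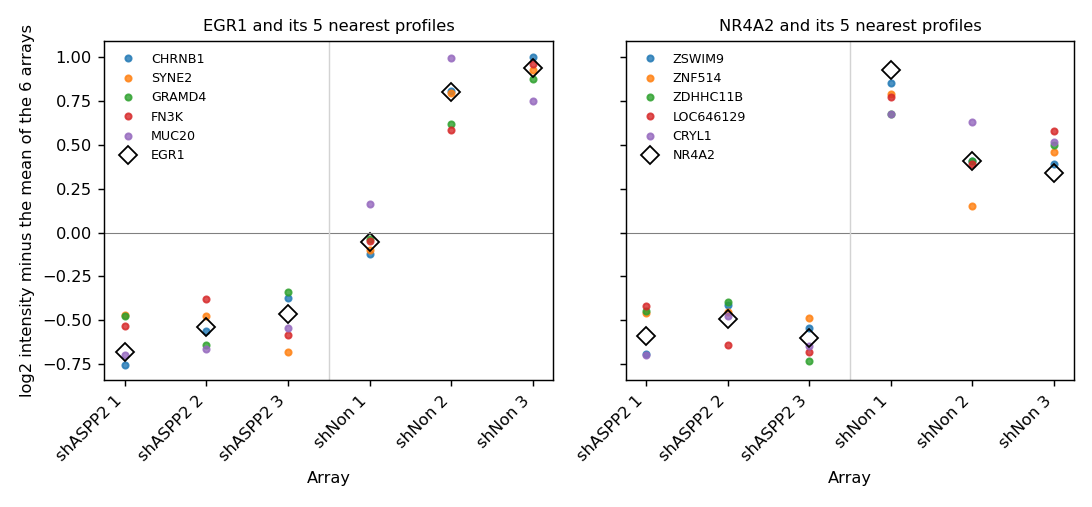
Log2 intensity minus the mean of the 6 arrays, by array (shASPP2 left of shNon), for the brightest feature of EGR1 (left) and NR4A2 (right), as open diamonds, and their 5 nearest profiles, as coloured dots. EGR1 and its neighbours have shNon array 1 near 0 and well below shNon arrays 2 and 3, whereas NR4A2 and its neighbours have shNon array 1 highest; the neighbours were picked for this likeness.

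Genes that act upstream of, together with or downstream of these factors were followed in 73 genes, each by its brightest feature. None passed over all features in limma (background 0.14% of genes), and 15 had an unadjusted p under 0.05 (background 11.7%). With trend and robust variance 5 passed, RPS6KA4, JUNB, TRIB1, PDGFB and ICAM1, where 2.11% of all features did. Among features above the median level 4 passed, MRTFA, JUNB, PDGFB and ICAM1, where 1.8% of the features tested did. Among features above 2 times the random-probe level JUNB passed, where 0.742% of the features tested did. Over the 73 genes the median was 0.14 log2, against 0.01 over all named genes. Of the values, 48 were above 0 and 25 below, where 50.7% of all named genes were above. All shASPP2 arrays were the higher for 18 genes (background 9.31%) and the lower for 6 (background 9.51%). Of the 73 genes, 65 had a mean above 2 times the random-probe level. Over all features above that level the median was 0.04 log2, and 55.0% were above 0. Their shares without overlap were 12.5% higher and 11.1% lower. The lists were chosen with earlier results of these data known, so nothing is read from these counts or those by role below.

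Of the 13 upstream RAS, RAF, MAP kinase and ribosomal S6 kinase genes, 9 had a positive log2 fold change, with a median of 0.13. RPS6KA4, which encodes the CREB and histone kinase MSK2, had 235, 403 and 306 in shASPP2, against 53.6, 170 and 63.7 in shNon. The shASPP2 arrays were all higher, but only 1 shNon array was clearly above background. Its log2 fold change was 1.88 (SE 0.443, limma adjusted p = 0.218, and 0.0111 with trend and robust variance), and its other feature had 0.45. MAPK3, encoding the kinase ERK1, had 1161, 2335 and 2085 in shASPP2, against 2499, 2318 and 3144 in shNon, with overlapping groups and a log2 fold change of -0.56 (SE 0.295, limma adjusted p = 0.523).

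Of the 15 factors that bind the promoters of immediate early genes, or bind such factors, 11 had a positive value, with a median of 0.13 log2. SRF itself had 0.14, ELK1 0.12, ELK4 0.14 and CREB1 0.16 log2, all with overlapping groups. ELK3, a relative of ELK1, had -0.26 and MEF2A, a relative of MEF2D, had -0.51 log2, each with all shASPP2 arrays the lower. These 6 were picked after their values were seen. MRTFA, an actin-regulated partner of serum response factor, had 185, 206 and 232 in shASPP2, against 110, 107 and 131 in shNon. The arrays did not overlap, with a log2 fold change of 0.84 (SE 0.185, limma adjusted p = 0.198), and it passed among features above the median level (adjusted p = 0.0435). MEF2D, a calcium-responsive factor at the NR4A1 promoter, had 550.2, 665 and 606 in shASPP2, against 390.1, 470.5 and 353 in shNon. This log2 fold change of 0.59 (SE 0.190) was opposed by its other features, at -0.26 and -0.43.

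The co-repressors and dimer partners gave little difference, with a median of -0.14 log2 over 5 genes. NAB2, which binds EGR proteins and is itself an EGR1 target, had 263, 305 and 317 in shASPP2, against 227, 277 and 167 in shNon. The groups overlapped, and its log2 fold change was 0.42 (SE 0.229, limma adjusted p = 0.536). RXRA, a retinoid receptor that pairs with NR4A1 and NR4A2, had 2066, 2257 and 2421 in shASPP2, against 1492, 2566 and 1503 in shNon, with overlapping groups and a log2 fold change of 0.32 (SE 0.252). The other 4 RXRA features lay between -0.14 and 0.39.

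Of 25 other early response genes, 18 had a positive log2 fold change, with a median of 0.28. All shASPP2 arrays were the higher for 10, and the lower for 1. The shares over all genes were 9.31% higher and 9.51% lower, and 12.5% and 11.1% over all features above 2 times the random-probe level, to which 24 of the 25 belong. Of all features above that level, 55.0% had a positive value. Since this list was chosen with earlier results of these data known, nothing is read from its counts. JUNB, an AP-1 subunit, had 624, 792 and 682 in shASPP2, against 273, 332 and 357 in shNon. The groups were far apart, with a log2 fold change of 1.13 (SE 0.194, limma adjusted p = 0.129). Its adjusted p was 0.00322 with trend and robust variance, 0.0237 among features above the median level and 0.0493 among features above 2 times the random-probe level. DUSP1, a phosphatase that switches off MAP kinases, had 244, 218 and 209 in shASPP2, against 112, 143 and 90.3 in shNon. Its log2 fold change was 0.98 (SE 0.217, limma adjusted p = 0.199). FOS, the classical immediate early gene, had a log2 fold change of -0.14 (SE 0.218) with overlapping groups. It was added for its role after its values were seen.

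The 15 genes described as targets of EGR1 or NR4A factors went both ways, with a median of 0.04 log2. PDGFB, a growth factor chain, had 297, 370.3 and 293 in shASPP2, against 116, 119 and 181 in shNon. Its log2 fold change was 1.23 (SE 0.233, limma adjusted p = 0.155), and its other 3 features had fitted values of 0.81, 0.82 and 0.85, with every shNon array under 2 times the random-probe level. PDGFA, the other chain, had 132, 71.5 and 94.3 in shASPP2, against 158, 130 and 325 in shNon. The groups overlapped by a single pair of arrays, with a log2 fold change of -0.97 (SE 0.385, limma adjusted p = 0.410). The gluconeogenic genes G6PC1, FBP1 and FBP2 had means under 2 times the random-probe level in both groups, as did POMC, IGF2 and FGF2.

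**Figure D4:**
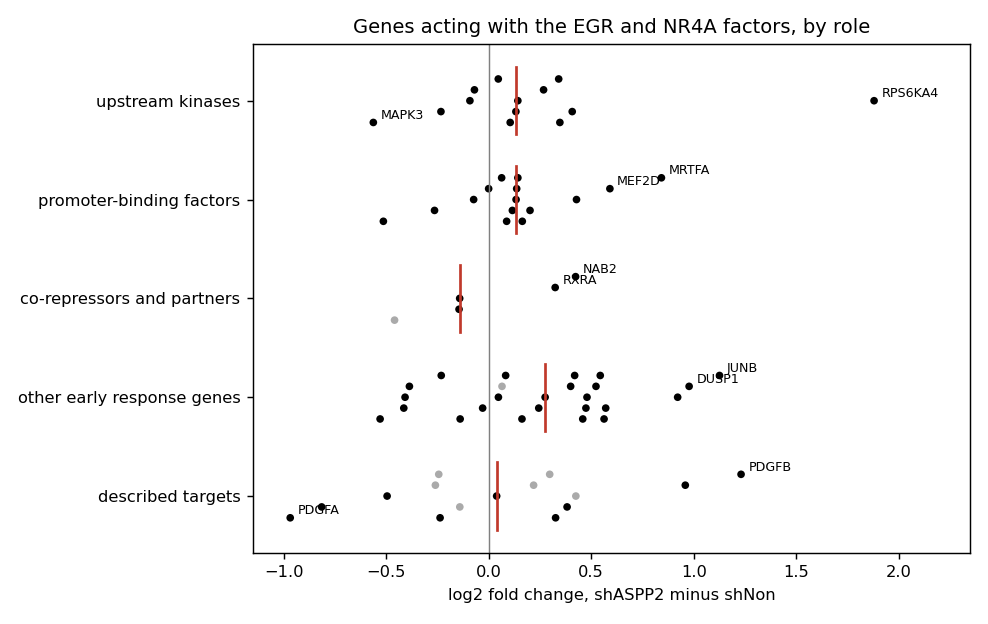
Log2 fold change, shASPP2 minus shNon, of the 73 pathway genes by role; each point is the brightest feature of a gene, grey where its mean is not above 2 times the random-probe level, and red lines are the medians of each role. The early response genes have the highest median, at 0.28, and RPS6KA4, PDGFB and JUNB lie furthest to the right.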

How the data were processed

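Intensities of 45033 features on 6 arrays, 1 per culture and 3 per group, were taken as the authors deposited them on a linear scale. The submitters' processing notes name RMA as the summary method and give no settings for it. A further deposited score per feature has no stated meaning and was not used. The deposited value table differed from the per-array files in 0 cells. Positions are those of the array's design (hg18). Gene identifiers named 38916 features through a RefSeq table of GRCh38.p14; 4031 kept the file's name and 2086 stayed unnamed.

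Log2 intensities were fitted with limma 3.58.1 in R 4.3.3 (lmFit and eBayes, with no covariate). Two-sided p-values were adjusted by Benjamini-Hochberg over all features, at a threshold of 0.05, and SEs are limma's moderated ones. The fit was tested on simulated data. The number of arrays limits the precision: an exact permutation test of 3 against 3 cannot go below p = 0.1, and none was run. The 9 genes and the lists were chosen with earlier results of these data known. Of the 73 pathway genes, those past the threshold are named, and otherwise the 2 with the largest difference per role above 2 times the random-probe level. Alternatives were other scalings, filters and variance models, a replicate block, 1 feature per gene, the value table and leaving out each array.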

Additional observations from a re-analysis of the deposited data

How the results depend on the processing

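No EGR, NR4A or IER feature tested passed the threshold under any of 14 alternatives, of which 11 tested all 20, and the value table holds the same values as the main input. Only 6 were tested above the median level, 10 above 2 times the random-probe level and 9 with 1 feature per gene. The count over all features was 62, and 405 among features above the median level, 200 among features above 2 times the random-probe level, 952 with trend and robust variance, 24 with 1 feature per gene, and between 0 and 17 without single arrays. The count of pathway genes was 0 and became 4, 1 and 5 under the first 3 of these. Those filters test fewer features, and fits without an array have fewer samples. The replicate block left 0 of all features past the threshold, with 4212 at an unadjusted p under 0.05. Same-numbered arrays of both groups had correlations of deviations of 0.06, -0.08 and -0.13, and the other pairs had between -0.09 and 0.14. These values show no pairing by number, but with 3 arrays per group they cannot exclude one. The median of the 20 features was between -0.05 and 0.11 log2 without single arrays. Only other scalings and leaving out arrays can move a single log2 fold change. Leaving out 1 array turned the sign for EGR4, NR4A2 BC009288, and NR4A3 D78579 and NM_173199, and NR4A3 NM_006981 ran from -2.10 to -0.78 log2. The level of dim features, above all EGR2, EGR3, EGR4 and NR4A3, limits what these arrays can show.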

Other observations

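Chosen after its values were seen, ICAM1, an adhesion molecule and described EGR1 target, was the only pathway gene lower in shASPP2 to pass under an alternative. It had 4595, 5695 and 5086 in shASPP2, against 9099, 9653 and 8249 in shNon. The arrays were far apart, with a log2 fold change of -0.81 (SE 0.178, limma adjusted p = 0.197), an adjusted p of 0.0410 among features above the median level and of 6.60e-04 with trend and robust variance. ICAM1 and PDGFB thus stood on opposite sides of 0, each without overlap between the groups. Of the 15 genes described as EGR1 or NR4A targets, 3 were higher and 2 lower without overlap, these among them. The shares over all genes were 9.31% and 9.51%, and nothing is read from these counts.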
